A study of Mus musculus with 8 samples.

Results

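The opioid genes comprise 8 of the 24343 genes in the deposited table. They were chosen by symbol, as the 4 genes for opioid peptide precursors (Penk, Pdyn, Pnoc and Pomc) and the 4 genes for their receptors (Oprm1, Oprd1, Oprk1 and Oprl1), without use of measured values. Whole brains of 3 C57BL/6NCrl mice aged 56–62 days were profiled by bulk RNA-seq, with 3 libraries each for mice 1 and 2 and 2 libraries for mouse 3. All mice belonged to a single condition, kept under light and dark phases of equal length, with no treatment and no control group named, and the labels do not give their sex. How the libraries of a mouse relate to each other (tissue pieces or repeat preparations) is not given in the sources used here, so p-values between mice measure only the spread between libraries, which may be technical. The whole brain is a pool of all its cell types, and in such samples fewer cells of a type and less RNA per cell cannot be told apart.

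Opioid peptides are cut by proteases from large precursor proteins and released by neurons. They bind receptors that act through inhibitory G proteins to reduce cyclic AMP, open potassium channels and close calcium channels. Proenkephalin (Penk) gives the enkephalins, which act mainly on the delta and mu receptors (Oprd1 and Oprm1). Prodynorphin (Pdyn) gives the dynorphins, ligands of the kappa receptor (Oprk1). Pro-opiomelanocortin (Pomc), made in arcuate neurons and the pituitary, gives beta-endorphin, a ligand of the mu receptor. Prepronociceptin (Pnoc) gives nociceptin, the ligand of the related receptor Oprl1.

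The sequence that the opioid peptides share is shown here because the precursors differ in how many copies of it a transcript carries. The longest open reading frames of GENCODE transcripts (release of build GRCm38) were searched for codons of tyrosine, glycine, glycine and phenylalanine, the opioid core, directly after a pair of lysine or arginine codons, where precursor proteases cut. The same search was made with phenylalanine in the first place, as in nociceptin. In each line the capitals mark the 4 codons of the core, the 6 bases before them are the basic pair, and the last 3 bases are the next codon.
Penk codons 100 to 103: aagaagTACGGAGGCTTCatg
Penk codons 107 to 110: aaacggTACGGAGGCTTCatg
Penk codons 136 to 139: aagaggTATGGCGGCTTCatg
Penk codons 187 to 190: aagaggTATGGGGGCTTCatg
Penk codons 211 to 214: aagcgcTACGGGGGCTTCatg
Penk codons 231 to 234: aagaggTATGGGGGCTTCctg
Penk codons 262 to 265: aaaagaTACGGGGGCTTTatg
Pdyn codons 166 to 169: aaacgcTATGGCGGCTTTttg
Pdyn codons 202 to 205: aaacgcTATGGGGGCTTCctg
Pdyn codons 221 to 224: aagcgcTATGGTGGTTTCctg
Pomc codons 205 to 208: aagcgtTACGGTGGCTTCatg
Pnoc codons 141 to 144: aaaaggTTTGGGGGCTTCacc

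Penk carried 7 cores in 268 codons, of which 6 were followed by a methionine codon and 1 by a leucine codon, the difference between Met- and Leu-enkephalin. Pdyn carried 3 cores in 248 codons, each followed by leucine, and Pomc carried 1 in 235 codons, followed by methionine. Pnoc carried no core with tyrosine and 1 with phenylalanine in 212 codons, followed by threonine. Among 21810 protein-coding genes searched in the same way, 3 held the tyrosine core after a basic pair, namely Penk, Pdyn and Pomc, and 2 of these held more than 1.

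Values are FPKM (sequenced fragments per unit of transcript length and of library size), summed over the transcripts of a gene, so that levels of different genes are compared per length. The libraries of a mouse were averaged first, then the 3 mice, and each SD is between the 3 mouse means. The levels of the opioid genes spanned 2 orders of magnitude, with Penk far above the rest and Oprm1 the lowest (the plot of levels by library). The libraries held 1.31 to 2.02 gigabases on transcripts (median 1.76), estimated from the deposited coverage. The recurring lowest values of long genes gave the size of a single fragment, and the fragment numbers given for single genes are estimates that rest on it. All 12 genes of a list that checks for brain tissue were measured at 1 FPKM or more. The values of long and short genes differed between libraries, and the Spearman rho of a library's deviation from the mean with transcript length was 0.182 to 0.502 in the 6 libraries of mice 1 and 2 and -0.364 and -0.574 in those of mouse 3. The comparisons between mice were repeated with this trend removed. For genes named in the text, a value without the trend is given where its removal changed a call, and for some where it moved the difference. Some list genes that are not named also changed call in that setting.

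**Figure D1:**
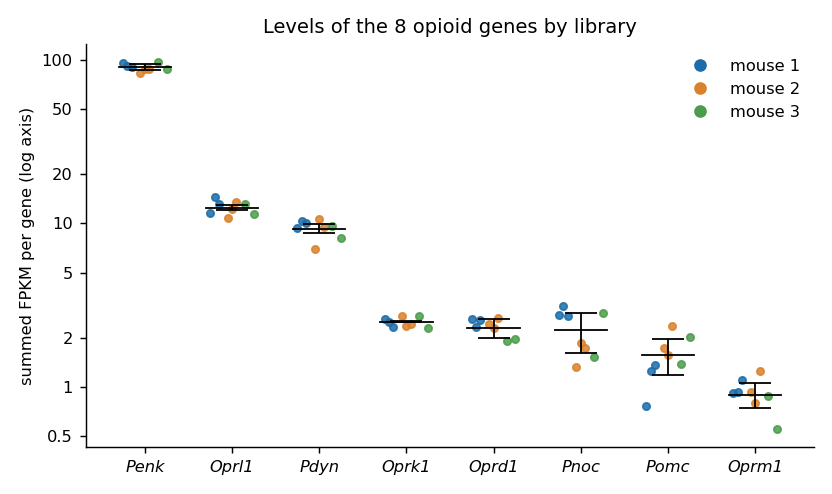
Summed FPKM of the 8 opioid genes in each of the 8 libraries on a log axis, coloured by mouse, with the mean and SD of the 3 mouse means as black bars. Penk (90.1 FPKM) stands above all others, and Oprl1 and Pdyn follow near 10 FPKM. The other 5 genes have means of 2.50 FPKM or below, and those next to each other in mean level have overlapping libraries. Oprm1 lies below Oprk1, Oprd1 and Pnoc in 8 of 8 libraries.

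Among the peptide precursors, Penk (chr4:4133536-4138445, minus strand, build mm10) had 94.8, 91.2 and 90.6 FPKM in the libraries of mouse 1, 83.3, 87.6 and 87.3 in mouse 2, and 96.2 and 87.6 in mouse 3. Its mean was 90.1 ± 3.48 FPKM (SD, n = 3), which ranked 635 of the 24343 genes. The libraries of mouse 2 were the 3 lowest, the highest of them level with library 2 of mouse 3 when rounded, and mice 1 and 3 overlapped. The coefficient of variation between mice was 3.86%, on an estimated 1220 to 1924 fragments per library. Penk accounted for 87.3% ± 0.465 (SD, n = 3) of the summed precursor FPKM. When each precursor was multiplied by its number of tyrosine cores, Penk transcripts carried 95.5% ± 0.206 of the encoded cores, Pdyn 4.21% ± 0.228 and Pomc 0.240% ± 0.0668, and these shares describe transcripts and not peptides.

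Pdyn (chr2:129686549-129699938, minus strand) had 9.38, 10.3 and 10.1 FPKM in mouse 1, 6.93, 10.6 and 9.45 in mouse 2, and 9.57 and 8.17 in mouse 3. The lowest and the highest library both came from mouse 2, and the mean was 9.27 ± 0.581 FPKM (SD, n = 3). The level of Penk was higher than that of Pdyn in each of the 8 libraries.

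Pnoc (chr14:65400673-65425472, minus strand) had 2.74, 3.12 and 2.71 FPKM in mouse 1, 1.33, 1.87 and 1.73 in mouse 2, and 1.54 and 2.82 in mouse 3. All libraries of mouse 1 lay above all of mouse 2, and those of mouse 3 fell on either side. The mean was 2.23 ± 0.608 FPKM (SD, n = 3), with an estimated 28.5 to 91.8 fragments per library.

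Pomc (chr12:3954945-3960643, plus strand) had 0.770, 1.26 and 1.37 FPKM in mouse 1, 1.72, 1.57 and 2.36 in mouse 2, and 1.39 and 2.03 in mouse 3. The libraries of mouse 1 were the 3 lowest, and mice 2 and 3 overlapped. The mean was 1.58 ± 0.393 FPKM (SD, n = 3), on an estimated 9.83 to 32.3 fragments, the fewest among the opioid genes. A pseudogene copy of Pomc is annotated on another chromosome, and how reads shared with it were counted was not stated. Of 8 pituitary genes, including the hormone genes Prl, Gh, Cga, Lhb, Fshb and Tshb, 0 reached 1 FPKM, and their summed level was 0.464 to 2.02 FPKM per library. Tbx19, the factor that defines pituitary Pomc cells, was listed at 0 in 4 libraries and reached at most 0.0870 FPKM. Of 4 other genes of arcuate neurons, only Cartpt, which many other neurons also express, had a mean above 1 FPKM, at 10.2 ± 5.91 FPKM (SD, n = 3). Agrp, the appetite peptide gene of the arcuate nucleus, had 0.312 ± 0.185 FPKM.

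Among the receptors, Oprl1 (chr2:181715016-181720985, plus strand) was the highest, with 11.5, 14.5 and 13.2 FPKM in mouse 1, 10.8, 12.2 and 13.4 in mouse 2, and 13.1 and 11.4 in mouse 3. The mice overlapped around a mean of 12.5 ± 0.486 FPKM (SD, n = 3). Oprl1 made up 68.7% ± 1.60 of the summed receptor FPKM, and at least 63.9% in each library.

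Oprk1 (chr1:5588493-5606133, plus strand), the kappa receptor, had 2.61, 2.49 and 2.33 FPKM in mouse 1, 2.73, 2.35 and 2.43 in mouse 2, and 2.72 and 2.31 in mouse 3. The 3 mouse means were 2.48, 2.51 and 2.52 FPKM, with a mean of 2.50 ± 0.0204 (SD, n = 3), while libraries of 1 mouse differed by more than that. Its coefficient of variation was 0.815% between mice and 6.89% over the 8 libraries.

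Oprd1 (chr4:132110726-132144486, minus strand), the delta receptor, had 2.61, 2.32 and 2.56 FPKM in mouse 1, 2.44, 2.28 and 2.65 in mouse 2, and 1.92 and 1.97 in mouse 3. The libraries of mouse 3 lay below all 6 others, which overlapped. The mean was 2.30 ± 0.310 FPKM (SD, n = 3).

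Oprm1 (chr10:6758593-7038209, plus strand), the mu receptor and main target of morphine, had 0.921, 0.940 and 1.10 FPKM in mouse 1, 0.933, 0.803 and 1.25 in mouse 2, and 0.881 and 0.558 in mouse 3. It was the lowest gene of the family in 7 of 8 libraries, the exception being library 1 of mouse 1, where Pomc was lower, and it reached 1 FPKM in 2 libraries. The mean was 0.900 ± 0.157 FPKM (SD, n = 3), on an estimated 13.6 to 38.5 fragments. The gene Ipcef1 overlaps Oprm1 on the other strand and had 13.9 FPKM, and since the strand setting of the estimation was not stated, reads of the 2 genes where they overlap could not be told apart.

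Ordered by mean level, the genes ran Penk, Oprl1, Pdyn, Oprk1, Oprd1, Pnoc, Pomc and Oprm1. A pair of neighbours was taken as apart when the order held in 8 of 8 libraries and the mouse means did not overlap, and this was so for 3 of 7 pairs. Penk exceeded Oprl1 by 7.22-fold (7.07 to 7.50 over the mice), Oprl1 exceeded Pdyn by 1.35-fold (1.31 to 1.38) and Pdyn exceeded Oprk1 by 3.70-fold (3.53 to 4.01). Oprk1 was above Oprd1 in 5 of 8 libraries, Oprd1 above Pnoc in 4 and Pnoc above Pomc in 6, so that neighbours among these 4 genes were not separated beyond their spread. Pomc was above Oprm1 in 7 of 8 libraries. An exact sign-flip test over 3 mice cannot give a two-sided p below 0.25, which each of the 3 separated pairs and the pair of Pomc and Oprm1 reached. When only the highest transcript of each gene was used, Pdyn ranked above Oprl1, and Oprd1 and Pnoc above Oprk1. Without library 1 of mouse 1, 4 of the 7 pairs were apart, and without library 1 of mouse 3, Pnoc ranked above Oprk1 and Oprd1.

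The spread of each gene over the libraries was set beside its estimated depth (the plot of spread against depth). Oprk1 and Oprm1 varied by 6.89% and 21.9% over the 8 libraries, near the 8.10% and 19.7% that counting alone would give at their estimated fragments. Pnoc varied by 30.8% against 12.7%, and Pdyn by 13.1% against 5.72%. Between mice, 4 of the 8 genes (Penk, Pdyn, Oprk1 and Oprl1) varied less than 12.3%, the median over the 13001 genes that averaged 1 FPKM or more.

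**Figure D2:**
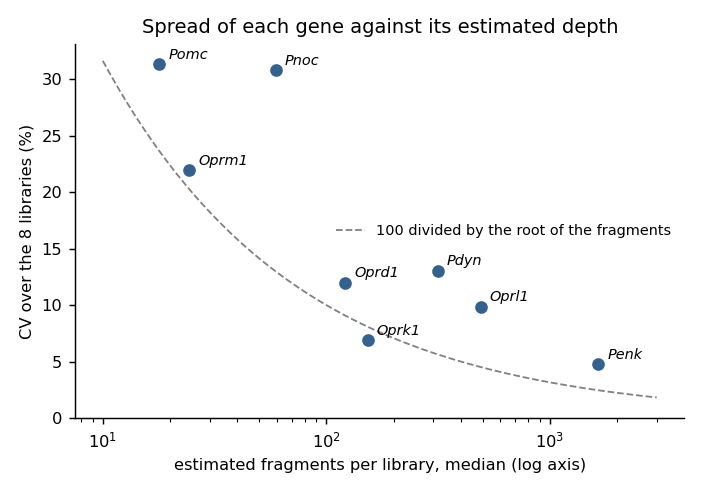
Coefficient of variation over the 8 libraries (%) of each opioid gene against its median estimated number of fragments per library (log axis), with the curve that counting alone would follow as a dashed line. Oprk1 and Oprm1 lie near the curve, whereas Pnoc (30.8%) lies far above it at 59.3 fragments.

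Precursor and receptor transcripts were then set against each other within each library. The 4 precursors summed to 106, 98.6 and 105 FPKM in mice 1, 2 and 3, and the 4 receptors to 19.0, 18.1 and 17.4 FPKM. Penk made up 87.3% of the precursor sum, so the ratio of the sums rests mainly on that gene. Without Penk, the precursors Pdyn, Pnoc and Pomc (means of 9.27, 2.23 and 1.58 FPKM) together lay below the receptor sum in each mouse. That order rested on the noncoding transcripts of Oprl1. With only its coding transcripts counted (mean of 7.04 FPKM), it held in mouse 1 and not in mice 2 and 3. The ratio of the 4 precursors to the 4 receptors was 5.69 ± 0.291 (SD, n = 3) and ranged from 5.10 to 6.21 over the libraries. It was 9.37 when only the highest transcript of each gene was used. The mice did not differ in it beyond the spread of their libraries (exact permutation test with 280 ways to divide the libraries among the mice, p = 0.336).

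The cognate pairs were not alike (the plot of ratios). The Penk transcript exceeded that of Oprd1 by 39.8-fold ± 6.59 (SD, n = 3) and that of Oprm1 by 106-fold ± 24.0, in 8 of 8 libraries each. Pdyn exceeded Oprk1 by 3.73-fold ± 0.260, in 8 of 8 libraries, with a range of 2.54 to 4.50. Pomc exceeded Oprm1 by 1.88-fold ± 0.732, in 7 of 8 libraries. The nociceptin pair ran the other way, with Oprl1 above Pnoc in 8 of 8 libraries, by 6.11-fold ± 1.46 and between 4.03-fold and 8.54-fold. With only the 2 coding transcripts of Oprl1 counted it was 3.44-fold ± 0.4998, again in 8 of 8 libraries. Between the mice, the same exact permutation test gave p = 0.0143 for Penk to Oprd1 and p = 0.0429 for Pomc to Oprm1, or 0.0857 and 0.129 after Benjamini-Hochberg adjustment over the 6 ratios computed. The other 3 pairs had an unadjusted exact p of 0.15 to 0.775, so that no ratio passed after adjustment.

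**Figure D3:**
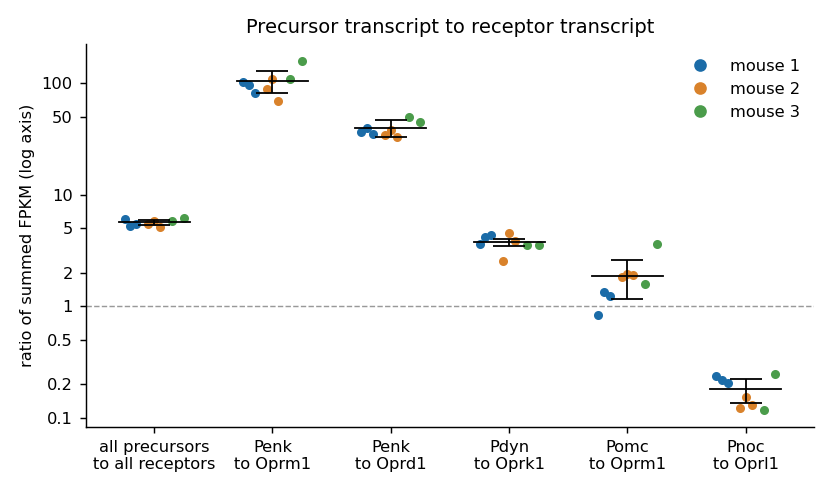
Ratio of precursor to receptor FPKM in each library on a log axis, coloured by mouse, with the mean and SD of the 3 mouse means as black bars and a dashed line at a ratio of 1. Penk exceeds its receptors by 39.8-fold and 106-fold, whereas all libraries of the Pnoc to Oprl1 pair lie below 1.

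The 8 genes had 28 transcripts in the table. Of these, Penk and Oprd1 had 1 each, and the values of the others were divided between transcripts by the estimation of the authors (the bar chart of transcripts). Pdyn and Oprm1 have alternative first exons, and the upstream bases of 3 of their start sites are shown, both those of Pdyn, since nearly all of its value came from 1 of them, and the one that held most of the Oprm1 value. The windows are the 150 bases before each start from RefSeq (GRCm38.p6), read in the direction of the gene. The CCAAT box (CCAAT), the TATA box (TATAAA) and the GC box (GGGCGG) were searched on both strands in the 250 bases before each start, and the capitals mark matches.
Pdyn upstream start, chr2:129699939-129700088, minus strand: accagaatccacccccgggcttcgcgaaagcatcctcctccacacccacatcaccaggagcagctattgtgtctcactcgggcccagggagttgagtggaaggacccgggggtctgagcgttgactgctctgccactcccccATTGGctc
Pdyn downstream start, chr2:129698659-129698808, minus strand: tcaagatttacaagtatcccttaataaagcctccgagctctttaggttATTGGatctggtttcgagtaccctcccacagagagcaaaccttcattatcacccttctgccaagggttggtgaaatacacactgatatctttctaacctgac
Oprm1 main start, chr10:6788420-6788569, plus strand: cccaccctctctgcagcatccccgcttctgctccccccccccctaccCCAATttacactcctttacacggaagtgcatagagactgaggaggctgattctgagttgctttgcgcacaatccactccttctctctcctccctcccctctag

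The 250 bases before the upstream Pdyn start had a GC content of 57.2%, and those before the downstream start, which lies inside the gene, 44.0%. Both held 1 reverse CCAAT box, and the main Oprm1 start held 1 forward CCAAT box at 103 bases before the start. A CCAAT box was found in 33.8% of 32851 RefSeq promoter windows of the same length, so these matches are common. The TATA box was found in 12.4% of all windows and the GC box in 32.7%. Pomc had a TATA box 25 bases before its start. The Oprd1 window was the richest in GC among the opioid genes, at 80.0%, above 98.9% of all windows or level with them, and held 4 GC boxes. Promoter windows were matched for 5 of the 8 genes, Pdyn, Pomc, Oprm1, Oprd1 and Oprl1.

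For Pdyn, the transcript from the upstream start held 99.4% ± 0.970 (SD, n = 3) of the FPKM, and the other start reached 0.01 FPKM in 1 library only. For Oprl1, the first start held 96.4% ± 2.22 and the second, 332 bases further into the gene, the rest. Within the first start, 3 transcripts that RefSeq lists as noncoding took 43.7% ± 7.05 of the Oprl1 value, between 30.7% and 57.5% over the libraries. The coding transcripts summed to 7.04 ± 1.14 FPKM (SD, n = 3), which was below the level of Pdyn in 8 of 8 libraries, so that Oprl1 ranked above Pdyn only with its noncoding transcripts included.

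For Oprm1, the main start held 80.0% ± 0.750 and a distal start, 29977 bases upstream, 19.4% ± 0.389 (SD, n = 3). Those small SDs hide a wide spread over libraries, since the share of the distal start ranged from 0.000174% to 61.6% and it reached 0.01 FPKM in 5 of 8 libraries. With an estimated 13.6 to 38.5 fragments per library for the whole gene, the choice of start could not be measured in a single library. The pair of Oprk1 transcripts, which differ by 30 bases in length, likewise traded places, with the shorter one at 13.7% to 100% of the gene, and so did the 2 main transcripts of Pomc. The sums over transcripts are therefore used for each comparison.

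**Figure D4:**
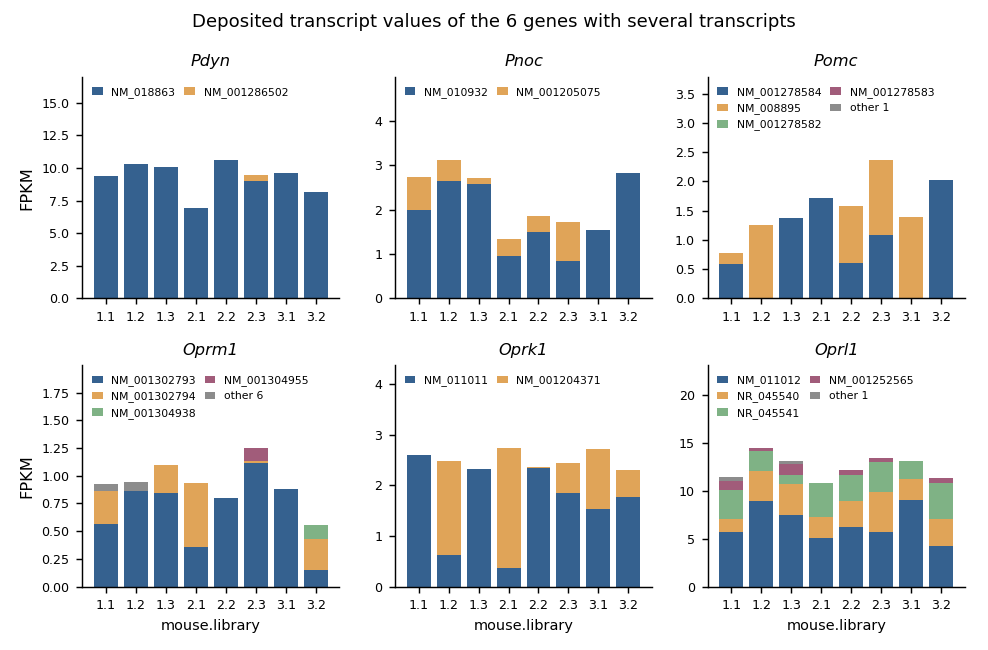
Stacked bars of the deposited FPKM of each transcript (RefSeq identifiers) in the 8 libraries, named by mouse and library, for the 6 opioid genes with more than 1 transcript. The total of Oprk1 stays between 2.31 and 2.73 FPKM while its 2 transcripts trade places, and Pdyn comes almost wholly from 1 transcript.

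Whether the opioid genes differed between the 3 mice was asked with the moderated F-test of limma on log2(FPKM + 1), fitted to all 13001 genes whose mean reached 1 FPKM and adjusted by the method of Benjamini and Hochberg. On this scale the changes of low genes are understated. Of the 7 opioid genes tested, 0 passed an adjusted p of 0.05, against 25.5% of all genes tested (3310 of 13001). At an unadjusted p under 0.05 there were 3, namely Pnoc, Oprd1 and Pomc, and 40.8% of all genes. The median range of the 3 mouse means was 0.15 on the log2 scale for the 7 opioid genes and 0.28 for all genes tested. Oprm1 was below the minimum, and with a minimum of 0.1 FPKM its adjusted p was 0.363.

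Oprk1 had the narrowest range of mouse means of the opioid genes, at 0.01 on the log2 scale (adjusted p = 0.989 by limma). Oprl1 (0.09, adjusted p = 0.758), Penk (0.10, adjusted p = 0.488) and Pdyn (0.15, adjusted p = 0.618) followed. The widest ranges were those of Pnoc, at 0.55 (adjusted p = 0.0621), and Pomc, at 0.44 (adjusted p = 0.117). For Oprd1, the difference of mouse 3 from the mean of mice 1 and 2 was -0.24 with an SE of 0.08 and a 95% interval of -0.41 to -0.07, while the F-test gave an adjusted p of 0.0953. The intervals of the same difference were -0.12 to 0.21 for Penk, -0.18 to 0.20 for Oprk1 and -0.22 to 0.47 for Pomc.

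The calls for 3 of these genes depended on the setting. With values rescaled to a fixed total per library (TPM), Oprd1 (adjusted p = 0.00933) and Pnoc (adjusted p = 0.0162) passed limma's test, but that scaling also moved the median of all genes in mouse 3, relative to mice 1 and 2, from 0.02 to -0.26. The Oprd1 difference was -0.56 with TPM, or -0.30 relative to that median. With the trend in transcript length removed, Pomc passed (adjusted p = 0.0246), but its mouse 3 difference turned from 0.13 to -0.32, and with TPM it was -0.07. In the same setting the Penk difference turned from 0.04 to -0.23 without passing (adjusted p = 0.208), and the Oprd1 difference was -0.16 (adjusted p = 0.291). Without library 1 of mouse 3, Pnoc passed (adjusted p = 0.0156).

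The genes that make, destroy and transduce opioid peptides were read from 3 lists of 49 genes, of which 48 were tested. In all, 15 of the 48 differed between the mice, beside the 25.5% of all genes. In mouse 3, 6 of the 15 were higher and 9 lower (the plot of mouse 3 differences). Over all genes called, 1835 were higher and 1475 lower in mouse 3. The counts rested on few libraries, at 1 of 48 without library 2 of mouse 3, and at 7, 8 and 6 without libraries 1, 2 and 3 of mouse 1. With TPM, 22 differed, of which 1 was higher and 21 lower, and with the length trend removed 19 differed, 9 higher and 10 lower. Over all genes called, 718 were higher and 4775 lower with TPM, and 1401 higher and 1237 lower with the length trend removed.

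Of 10 peptide processing genes, 4 were higher and 1 was lower in mouse 3, and 5 did not pass. Carboxypeptidase E (Cpe), which trims the basic residues left by the proteases, had the highest level of the list, 916 ± 172 FPKM (SD, n = 3), and was higher in mouse 3 by 0.45 on the log2 scale (adjusted p = 0.0203 by limma). The glutaminyl cyclase gene Qpct was higher by 0.76 (adjusted p = 0.0240). Pcsk2, the convertase that cuts enkephalins and dynorphins from their precursors, was lower by 0.61 at a mean of 64.3 ± 14.95 FPKM (adjusted p = 0.00629). Scg5, the chaperone of that convertase, was higher by 0.50 at 159 ± 34.8 FPKM (adjusted p = 0.0257). With TPM, Pcsk2 and Qpct passed in the same directions, and Cpe (adjusted p = 0.297) and Scg5 (adjusted p = 0.214) did not pass. With the length trend removed, the Scg5 difference was 0.16 and did not pass either (adjusted p = 0.288). The convertase Pcsk1 was measured at 8.20 ± 0.298 FPKM (adjusted p = 0.704).

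Of 11 peptide degradation genes tested, 1 differed, 9.09% of the list. This was Ace, angiotensin-converting enzyme, which also cleaves enkephalins, lower in mouse 3 by 0.42 (adjusted p = 0.0125 by limma). The puromycin-sensitive aminopeptidase Npepps was the highest of the list at 37.2 ± 3.84 FPKM (SD, n = 3). The enkephalinase neprilysin (Mme) had 2.51 ± 0.107 FPKM (adjusted p = 0.650).

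Of 27 receptor coupling genes, 2 were higher and 7 lower in mouse 3. The potassium channel genes Kcnj3, Kcnj9 and Kcnj6, whose products opioid receptors open through G proteins, were lower by 0.51 (adjusted p = 0.00785), 0.53 (adjusted p = 0.0101) and 0.50 (adjusted p = 0.0473 by limma). The G protein genes Gng2, Gnao1 and Gnaz and the calcium channel gene Cacna1a were lower as well. With the length trend removed, the Cacna1a difference went from -0.42 to -0.19 and did not pass (adjusted p = 0.153). In that setting Gnai3, Grk2, Grk5, Arrb1 and Adcy1 passed, all higher in mouse 3 (adjusted p = 0.0217, 0.0153, 0.0366, 0.00394 and 0.00638 by limma). None of them passed in the main fit or with TPM, so the balance of higher and lower coupling genes depended on the setting. Of the 8 fits that each left out a library, 2 called Gnaz, 2 called Cacna1a and 1 called Kcnj6. Gnai2, an inhibitory alpha subunit, was higher by 0.39 (adjusted p = 0.0241), as was Ogfr, the opioid growth factor receptor, which is not a G protein-coupled receptor. With TPM neither Gnai2 (adjusted p = 0.475) nor Ogfr (adjusted p = 0.541) passed, and with the length trend removed Ogfr did not pass (adjusted p = 0.102). Of the 8 fits without a library, 3 called Gnai2 and 1 called Ogfr. The beta subunit Gnb1 had the highest level of the list, 208 ± 12.6 FPKM (SD, n = 3), with an adjusted p of 0.308.

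Some markers of cell types differed between the mice as well. In mouse 3 the neuronal genes Syt1 and Rbfox3 were lower by 0.73 and 0.49 on the log2 scale (adjusted p = 0.00629 and 0.0103 by limma). The neuronal genes Snap25, Slc17a7 and Slc32a1 were lower by 0.12, 0.22 and 0.33 and did not pass (adjusted p = 0.404, 0.123 and 0.0892). The myelin gene Mbp and the astrocyte gene Gfap were higher by 1.27 and 1.03 (adjusted p = 0.00393 and 0.00510). Of the 12 genes that check for brain tissue, 8 differed, 5 higher and 3 lower. The part of cell composition in the list values was not tested. The 6 markers of striatal projection neurons, which express Penk and Pdyn, summed to 76.1 to 101 FPKM per library, and 0 of the 6 passed limma's test, with 1 at an unadjusted p under 0.05. Ppp1r1b, a further gene of these neurons, stood on the brain list. It was lower in mouse 3 by 0.25 (adjusted p = 0.0415 by limma) and, with the length trend removed, by 0.45 (adjusted p = 0.0123). Of the 8 fits that each left out a library, 2 called Ppp1r1b. With the replicate number as a block it did not pass (adjusted p = 0.0895 by limma).

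**Figure D5:**
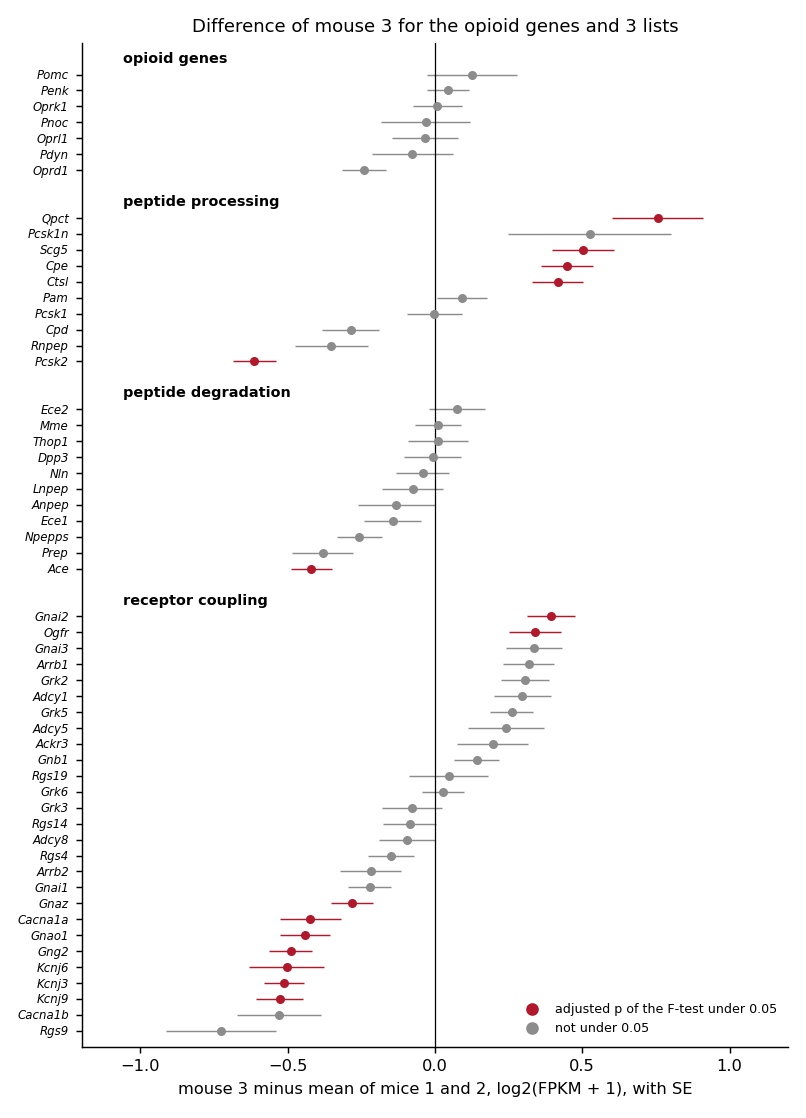
Difference of mouse 3 from the mean of mice 1 and 2 on the log2(FPKM + 1) scale, with its SE, for the 7 opioid genes tested and the genes of the 3 lists, in red where the F-test across the mice had an adjusted p under 0.05. None of the opioid genes is red and 15 of the 48 list genes are.

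For each opioid gene tested, the genes of most similar pattern were named by Pearson's r of log2(FPKM + 1) over the 8 libraries among 12994 other genes, as a description with no test, since all genes share the same 8 libraries and their depth. For Penk these were 2810032G03Rik (r = 0.984) and Hmga1 (r = 0.970), and for Pdyn Inpp5k (r = 0.987) and Papss1 (r = 0.983). Oprd1 was most like Sertad4 (r = 0.980) and Setd1a (r = 0.976), and Oprl1 most like Ibtk (r = 0.982) and Fntb (r = 0.979). The nearest genes to Oprk1 were Katnal2 (r = 0.930) and Ccdc149 (r = 0.925), to Pnoc Ttc26 (r = 0.948) and Ufsp2 (r = 0.936), and to Pomc Kazald1 (r = 0.903) and Lrrc27 (r = 0.902). The opioid genes were left out of this search, so none could be named, and none of the genes found belonged to the 3 lists. Among the opioid genes themselves the highest r was 0.738, between Pdyn and Oprl1, and the lowest was -0.683, between Penk and Pomc.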

How the data were processed

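Whole-brain RNA of 3 mice was sequenced as 8 libraries (RNAqueous Micro kit, Kapa mRNA HyperPrep libraries, NextSeq500). The authors' processing notes name TopHat, Cufflinks and the build mm10, and versions and the strand setting are not given in the sources used here. The authors deposited FPKM of 34535 RefSeq transcripts per library, scaled to transcript length and library size, with a status that was FAIL for 0 values of the opioid genes. The deposited coverage, a signal of read depth per base, was multiplied by length to estimate depth. The value of 1 fragment, 160 to 163 bases, was read from 72 to 95 low single-transcript genes of at least 3000 bases, and since FPKM is no count, no counting interval was computed.

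FPKM was summed over the transcripts of a gene. Mice were compared with limma 3.58.1 (R 4.3.3) on log2(FPKM + 1) where a gene's mean reached 1 FPKM, with Benjamini-Hochberg adjustment. The ratio of precursors to receptors was tested by exact permutation of libraries between mice, and the order of levels by exact sign flips over mice. The scripts were tested on simulated data. The alternatives were a pseudocount of 0.1, minima of 0.1 FPKM or none, TPM, removal of the length trend by lowess, a variance trend, a replicate block, the highest transcript, other means and leaving out each library. The text names the 8 opioid genes, the genes most like each, the highest gene of each list and up to 3 list genes past the threshold with the largest range of mouse means, and other names were chosen after their values were seen. The rule for the members uses symbols and no measured value, but the members and lists were chosen with earlier results of these data known.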

Additional observations from a re-analysis of the deposited data

Results flagged for a closer look

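Of 18 levels, ratios and transcript shares of the opioid genes checked over the 8 libraries, 3 had 1 library whose gap to its nearest neighbour, as a part of the whole range, exceeded Dixon's critical value, which chance passes in about 1 in 20 groups. The ratio of Penk to Oprm1 was 157 in library 2 of mouse 3, against 109 in the next highest library. In the same library the ratio of Pomc to Oprm1 was 3.63, against 1.96 in the next. Both ratios share the Oprm1 value of that library, 0.558 FPKM on few fragments, the lowest of the 8, and the part of depth in them was not tested. The share of the downstream Pdyn start was 4.82% in library 3 of mouse 2 and at most 0.0314% in the others.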

How the results depend on the processing

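Against 0 opioid genes called between the mice, 2 were called with TPM, 1 with the length trend removed, and 0 to 1 when 1 library was left out. Replicate numbers are shared between mice, but residuals of same-numbered libraries correlated by only 0.00276 to 0.107 over 7 pairs, so the numbers were not taken as pairs. With a replicate block 2 opioid genes were called, Pnoc (adjusted p = 0.0279 by limma) and Pomc (adjusted p = 0.0424), and of the list genes Kcnj6 (0.113), Gnaz (0.0777) and Cacna1a (0.0965) did not pass. The 15 list genes became 5 with a minimum and pseudocount of 0.1, added after seeing the data, and 1 to 19 when 1 library was left out. All genes called numbered 3310, and 126 without library 2 of mouse 3, 1526 with the added setting, 5493 with TPM (718 higher in mouse 3), 2066 with the highest transcript and 1635 to 1835 without a library of mouse 1. The block called 2995, of which 2035 were higher in mouse 3, against 1835 of 3310 without it. The ratio of precursors to receptors was 9.37 with the highest transcript and 5.61 to 5.76 when 1 library was left out. The Oprk1 difference of mouse 3 from mouse 1, its highest and lowest mouse in the main fit, was 0.01. It turned to -0.24 with TPM and to -0.021 with the highest transcript. TPM also moved the median of all genes in mouse 3, relative to mice 1 and 2, to -0.26. The Oprk1 difference ran from -0.071 to 0.0998 when 1 library was left out. It was below 0 without library 3 of mouse 1 and without library 1 of mouse 3. In none of these settings did Oprk1 pass the test. The causes were not tested. Pomc, Oprm1 and Pnoc rested on the fewest estimated fragments of the opioid genes, so their values are to be read with care. The part of depth in their spread and in the shares of single transcripts was not tested.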
